A study of Mus musculus with 5 samples.

Results

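The genes described are the subunits of oxidative phosphorylation complexes I, III, IV and V, 93 of the 47729 gene rows of a mouse RNA-seq count table. They were chosen by position and symbol, not by level: rows of chromosome MT whose symbols begin with mt-Nd, mt-Co, mt-Cytb or mt-Atp, and nuclear symbols that begin with Ndufa, Ndufb, Ndufc, Ndufs or Ndufv and a digit, with Uqcr, with Cox4 to Cox8, or with Atp5. The mitochondrial genome gave 13 members (7 of complex I, 1 of complex III, 3 of complex IV and 2 of complex V) and the nuclear genome 80 (37, 8, 18 and 17). A further 4 symbols ending in -ps were left out. The choice by symbol took in Atp5s and Atp5sl, which are now known as assembly-related factors and not as ATP synthase subunits, and put Ndufa4, today regarded as a complex IV subunit, with complex I. It left out complex II and the subunits Cyc1 and Ndufab1, whose values are given with the other pathway genes.

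Oxidative phosphorylation takes place at the inner mitochondrial membrane. Complex I (NADH dehydrogenase), complex III (the cytochrome bc1 complex) and complex IV (cytochrome c oxidase) pass electrons to oxygen and pump protons, and complex V (ATP synthase) uses the proton gradient to make ATP. Each of these complexes is built from proteins of both genomes: the mitochondrial genes are transcribed as long precursors inside the organelle, whereas each nuclear subunit gene has its own promoter.

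The cells were dermal group 2 innate lymphoid cells (dILC2s), tissue-resident lymphocytes that lack antigen receptors, sorted without further stimulation from the ear skin of untreated C57BL/6 mice. The flow cytometry methods of the study define dILC2s as viable CD45+CD90hi cells without CD2/CD3 signal. Its RNA sequencing methods do not give the gate of the sort. By the methods of the study the mice were female and 8 to 13 weeks old. The 3 WT pools (numbered 5, 6 and 13 in the labels) each held cells of 10 mice and the 2 Rag1-/- pools (numbered 2 and 7) cells of 9 mice each, whereas the labels count 30 WT and 16 Rag1-/- mice. Rag1-/- mice lack the recombinase needed to assemble antigen receptor genes and therefore have no mature T and B cells. The labels call the cells innate lymphoid cells type 2 in the WT libraries but type 3 in the libraries labelled Rag1-/-. Animals were pooled, so p-values measure the spread between pools and not between mice.

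The libraries labelled Rag1-/- stood apart in several ways that touch the values below. Pool 2 held 8050562 counts, against 38922750 in pool 7 and 32939428 to 39477243 in the WT pools. The targeted gene, Rag1, had 4, 0 and 5 counts in WT pools 5, 6 and 13, 5 counts in pool 2 and 48 counts in pool 7. The allele is not given in the labels, and reads from a part of the gene outside the deletion would not test it, so genotypes are those of the labels and pools 2 and 7 are called the pools labelled Rag1-/-. Of 15 ILC2 markers all were detected in every library and 5 were called higher, with a summed level of 1320 to 2593 CPM (counts per 1000000 counts of the library) in the WT pools and of 6664 and 4314 CPM in pools 2 and 7. Of 20 pan-leukocyte markers, 19 were tested and 14 were called higher, with sums of 875 to 2130.0 CPM in the WT pools, 6885 CPM in pool 2 and 6009 CPM in pool 7, and only Evi2b was near 0 throughout. Of 15 keratinocyte markers, which a gate on CD45 should remove, 7 were called lower, with sums of 30364 to 43338 CPM in the WT pools, 7608 CPM in pool 2 and 17449 CPM in pool 7. Of 10 T cell markers 9 were tested and 5 called higher, with sums of 55.5 to 120.3 CPM in WT, 449 CPM in pool 2 and 363 CPM in pool 7, and no myeloid, fibroblast, endothelial or adipocyte marker was called. Summed myeloid markers, 8 genes, were nevertheless lowest in pool 2 at 135 CPM and highest in pool 7 at 414 CPM, against 228 to 384 CPM in WT, and the 6 endothelial markers summed to 146 CPM in pool 2, 326 CPM in pool 7 and 292 to 501 CPM in WT. The 7 fibroblast markers summed to 7398 to 13275 CPM in WT, 7990 CPM in pool 2 and 7883 CPM in pool 7. In every library this was more than the sum of the ILC2 or of the leukocyte markers. In bulk RNA, fewer cells of a type and less RNA per cell cannot be told apart, and the part of these markers in the values of the subunits was not tested.

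The mitochondrial mRNAs included the most abundant members, and most of those with counts were lower in pool 7 than in any other library. Together they held 1.91%, 2.03% and 2.56% of all counts in WT pools 5, 6 and 13, 1.77% in pool 2 and 1.59% in pool 7. The groups did not overlap, with a mean of 2.17% ± 0.344 (SD, n = 3) in WT and of 1.68% ± 0.127 (SD, n = 2) in the pools labelled Rag1-/-. With 3 libraries against 2 an exact permutation test has 10 splits and cannot reach 0.05, and no p-value is given for such sums.

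Of the 13 mitochondrial mRNAs, 7 had counts and 6 were at or near 0 in every library. mt-Co2 and mt-Co3, core subunits of complex IV, mt-Atp6 and mt-Atp8 of complex V and mt-Nd4l of complex I had 0 counts in all 5 libraries. mt-Nd3 of complex I had 4, 4 and 2 counts in the WT pools, 0 in pool 2 and 10 in pool 7. Levels of these 6 genes cannot be read from the table, and both mitochondrial members of complex V are among them.

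Most of these genes have a second copy in the nuclear genome. In GRCm38 the transcripts of 7 unprocessed pseudogenes on the minus strand of chromosome 1 (24611535 to 24616197) repeat a stretch of the mitochondrial genome from the 3′ part of mt-Co1 to mt-Nd4. The copies of mt-Co2 (Gm28661, 681 bases), mt-Atp6 (Gm10925, 678 bases), mt-Co3 (Gm28437, 783 bases), mt-Nd4l (Gm10222, 294 bases) and the first 876 bases of mt-Nd4 (Gm28439) were identical to the mitochondrial genes at every base. The copy of mt-Nd3 (Gm28438) differed at 1 of 345 bases and that of the end of mt-Co1 (Gm29216) at 6 of 492. The start of the mt-Nd3 pair and the boundary of the mt-Co1 pair are printed because they show how little separates a mitochondrial read from a nuclear one, with the bases that differ in capitals (mt-Nd3 at chrM:9459-9518 and mt-Co1 at chrM:6381-6440 on the plus strand, Gm28438 at chr1:24613060-24613119 and Gm29216 at chr1:24616138-24616197 on the minus strand, all GRCm38).
mt-Nd3: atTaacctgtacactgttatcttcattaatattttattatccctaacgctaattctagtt
Gm28438: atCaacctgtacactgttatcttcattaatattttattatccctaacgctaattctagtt
mt-Co1: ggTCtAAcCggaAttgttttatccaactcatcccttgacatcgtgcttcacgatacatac
Gm29216: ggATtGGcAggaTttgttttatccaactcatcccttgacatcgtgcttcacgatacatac

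The difference in mt-Nd3 was T3C, with the mitochondrial base first and positions counted from 1 at the start of the gene, and those in mt-Co1 were T1056A, C1057T, A1059G, A1060G, C1062A and A1066T. All 6 of the latter lie within the first bases of the copy, and the rest of it matched mt-Co1. Reads were 50 bases long. Of the 50-base windows of each transcript, the share that also occurs in the transcript of another gene was 100% for mt-Co2, 99.9% for mt-Co3, 99.5% for mt-Atp6, 98.8% for mt-Nd4l and 98.0% for mt-Nd3. It was 62.2% for mt-Nd4, 51.1% for mt-Co1, 8.19% for mt-Nd2 and 7.61% for mt-Nd5, and no window was shared for mt-Nd1, mt-Nd6 and mt-Cytb. mt-Atp8 shared no window either, but its place between the copies of mt-Atp6 and mt-Co2 is a stretch of 233 bases without an annotated transcript (chr1:24614652-24614884), which was not compared. The 5 genes with nearly all windows shared had at most 10 counts in a library, the 7 genes with more counts shared at most 62.2%, and the 7 pseudogenes together had 44 to 55 counts in the WT pools, 3 in pool 2 and 45 in pool 7. The handling of reads with several matches is not given in the sources used here, so its part in the zeros was not tested.

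**Figure D1:**
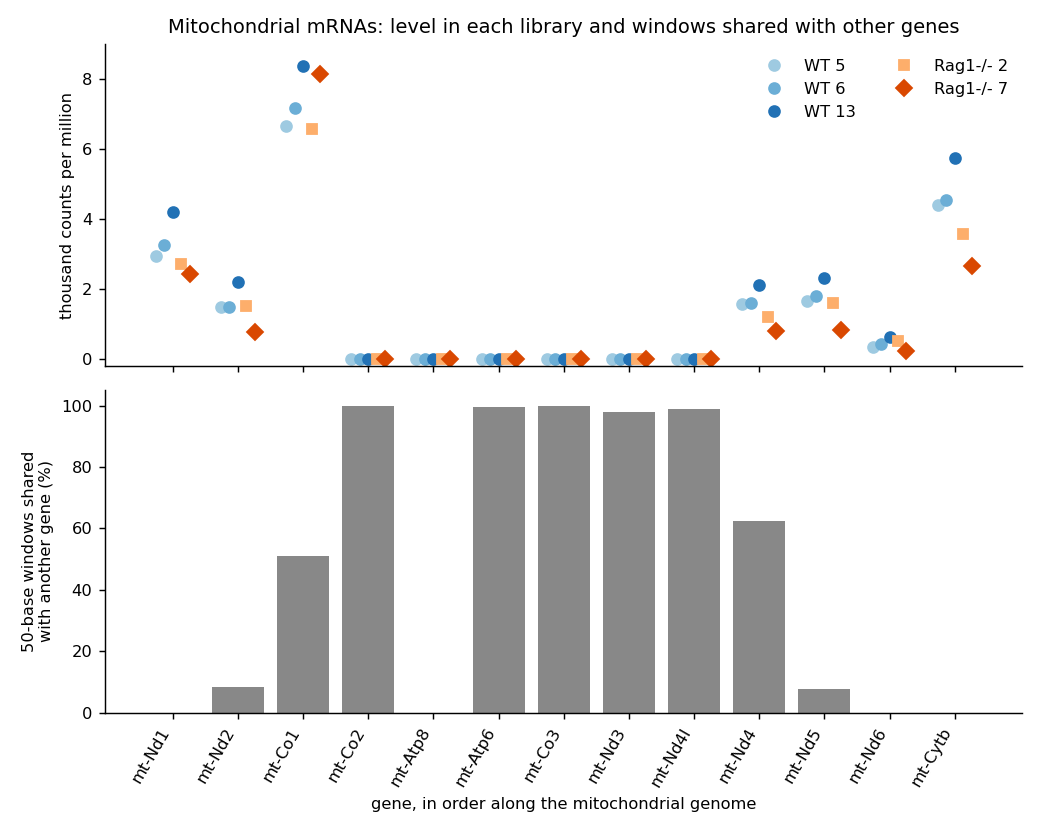
The upper panel plots the level of each mitochondrial mRNA in CPM divided by 1000, with 1 point for each of the 5 libraries (circles WT, square and diamond the pools labelled Rag1-/-), and the lower panel the percent of 50-base windows shared with another gene. Genes with nearly all windows shared, and mt-Atp8, lie at 0, and pool 7 (diamond) is lowest for the mt-Nd genes with counts and for mt-Cytb but not for mt-Co1, at 8136 CPM.

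Complex I subunits of the mitochondrial genome build the proton-pumping membrane arm. mt-Nd4 had 1586, 1596 and 2115 CPM in WT pools 5, 6 and 13, 1203 CPM in pool 2 and 797 CPM in pool 7. mt-Nd5 had 1655, 1819 and 2316 CPM in WT, 1599 CPM in pool 2 and 849.7 CPM in pool 7. Both were lower in each pool labelled Rag1-/- than in any WT pool, with a fitted log2 fold change (Rag1-/- minus WT) of -0.79 ± 0.28 (SE) for mt-Nd4 and -0.63 ± 0.33 for mt-Nd5, at adjusted p = 0.132 and 0.271 (edgeR quasi-likelihood test, Benjamini-Hochberg over 19011 genes). In DESeq2 the adjusted p of mt-Nd4 was 0.0195, with a log2 fold change of -0.84.

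mt-Nd1, which reaches into the ubiquinone pocket, had 2961, 3273 and 4200.4 CPM in WT, 2706 CPM in pool 2 and 2435 CPM in pool 7. mt-Nd2 had 1505, 1501 and 2213 CPM in WT, 1521 CPM in pool 2 and 793 CPM in pool 7. The groups of mt-Nd1 did not overlap, whereas pool 2 lay within the WT range for mt-Nd2. mt-Nd6 is encoded on the opposite strand to the other mitochondrial members and had 363, 428 and 623 CPM in WT, 524 CPM in pool 2 and 242 CPM in pool 7. The library kit does not mark strand, so sense and antisense reads of mt-Nd6 cannot be told apart. By the methods of the study the libraries were enriched for poly(A) RNA. The part of this step in the levels of the mitochondrial transcripts was not tested. The log2 fold changes were -0.40 ± 0.27 for mt-Nd1, -0.56 ± 0.34 for mt-Nd2 and -0.28 ± 0.37 for mt-Nd6, and none passed the test (adjusted p of at least 0.349, edgeR).

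mt-Cytb, the cytochrome b of complex III, had 4391, 4543 and 5746 CPM in WT, 3587 CPM in pool 2 and 2671 CPM in pool 7. The groups did not overlap, and the log2 fold change was -0.62 ± 0.28 (adjusted p = 0.211 in edgeR and 0.0489 in DESeq2). mt-Co1, the catalytic subunit of complex IV that holds the oxygen-reducing centre, took another course. It had 6657, 7166 and 8381 CPM in WT, 6579 CPM in pool 2 and 8136 CPM in pool 7, so that pool 7 lay at the upper end of the WT range. Its log2 fold change was 0.03 ± 0.28 (adjusted p = 0.967, edgeR).

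The balance within the mitochondrial mRNAs therefore differed in pool 7. mt-Co1 held 34.8%, 35.3% and 32.7% of mitochondrial mRNA counts in the WT pools, 37.1% in pool 2 and 51.1% in pool 7. The ratio of mt-Co1 to mt-Cytb counts, which cancels the library total, was 1.52, 1.58 and 1.46 in WT, 1.83 in pool 2 and 3.05 in pool 7. Both pools labelled Rag1-/- lay above the WT pools in these ratios, pool 7 by more than pool 2. Without mt-Co1, the mitochondrial mRNAs held 1.25%, 1.32% and 1.72% of counts in WT, 1.11% in pool 2 and 0.779% in pool 7. Per 1000 windows of their own, mt-Co1 was the highest in WT (10125 CPM), followed by mt-Cytb (4469 CPM), mt-Nd1 (3831 CPM), mt-Nd4 (3517 CPM), mt-Nd2 (1916 CPM), mt-Nd5 (1177 CPM) and mt-Nd6 (1003 CPM). This divisor assumes that reads with several matches were not counted. Per kilobase of gene, mt-Co1 (4790 CPM) was followed more closely by mt-Cytb (4277 CPM) and mt-Nd1 (3634 CPM). By that measure mt-Nd4 (1281 CPM) lay under mt-Nd2 (1676 CPM). Windows were counted as shared between annotated transcripts alone, so the levels of mt-Co1 and mt-Nd4, with the largest shared parts among these 7 genes, carry the most uncertainty.

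Across both genomes no member was called. Calls needed a log2 fold change beyond 1 in either direction besides an adjusted p-value below 0.05, and 5.73% of the 19011 genes tested met it (1090 genes, 679 higher and 411 lower). Of the 93 members 85 were tested, 7 mitochondrial and 78 nuclear. The 8 others, the 6 mitochondrial genes without usable counts and the nuclear Cox7b2 and Cox8c at 0 in every library, did not pass the filter on low counts. DESeq2 and limma called 0 members as well, and at an unadjusted p under 0.05 in edgeR there were 6, of which 4 were higher and 2 lower, against 26.4% of all genes tested. By adjusted p alone DESeq2 passed 5 members (mt-Nd4, mt-Cytb, Ndufb7, Ndufa13 and Atp5s), each with a log2 fold change under the size required, against 19.9% of the genes to which it gave an adjusted p. The median SE of a member was 0.29 on the log2 scale, and a p-value above the threshold does not show that levels were alike. Of the 7 mitochondrial members 6 lay below and 1 above 0 on the log2 scale, with a median of -0.56. Of the 78 nuclear members 65 lay above and 13 below 0, with a median of 0.26, beside a median of 0.02 over all genes tested. The 61 with a coding transcript under 1000 bases had a median of 0.27, beside 0.16 over all such genes tested. The 17 longer ones had a median of 0.25, beside 0.01. Scaled on the leukocyte markers in place of all genes, the median over all genes shifted to -2.16, with -2.71 over the mitochondrial and -1.90 over the nuclear members, 72 members were called lower, and the calls over all genes were 16 higher and 12819 lower.

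The nuclear median hid a wide gap between the pools labelled Rag1-/-. Relative to the WT mean, nuclear members had a median log2 ratio of -0.25 in pool 2 and of 0.54 in pool 7, over the 76 with more than 3 counts in both of these pools. Fitted without pool 7 the nuclear median was -0.34, and without pool 2 it was 0.61. Pool 7 was the highest and pool 2 the lowest of the 5 libraries for 47 of 78 nuclear members, an order held by 6.49% of all genes tested. Of the members with a coding transcript under 1000 bases 37 of 61 held it, against 14.2% of all such genes tested. Of the longer ones 10 of 17 did, against 5.67%. Pool 7 was the highest for 69 of the 78 nuclear members and pool 2 the lowest for 52, against 3884 and 5973 of the 19011 genes tested. The reverse order was held by Cox6b2 alone, against 1502 of the 19011 genes tested. The log2 gap between pools 2 and 7 had a median of 0.84 over these members and of 0.49 over all genes tested with more than 3 counts in each library, whereas the range of the WT pools had medians of 0.23 and 0.42. The gap was wider than the WT range for 72 of 76 nuclear members, against 54.3% of all genes tested with more than 3 counts in each library. Of the marker lists, the summed myeloid genes had the same order of pools 2 and 7 around WT, with 3 of 8 markers in that order. Of the 8 skeletal muscle markers tested 4 held that order, although the sum of their list in pool 2 lay within the WT range. The part of both lists in the gap was not tested.

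The summed nuclear members held 0.554%, 0.522% and 0.550% of counts in the WT pools, 0.468% in pool 2 and 0.782% in pool 7. The WT pools lay within a narrow band, and the pools labelled Rag1-/- on either side of it. The ratio of mitochondrial mRNA to nuclear member counts was 3.45, 3.89 and 4.65 in WT, 3.78 in pool 2 and 2.04 in pool 7. Pool 2 lay within the WT range of this ratio and pool 7 well under it.

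**Figure D2:**
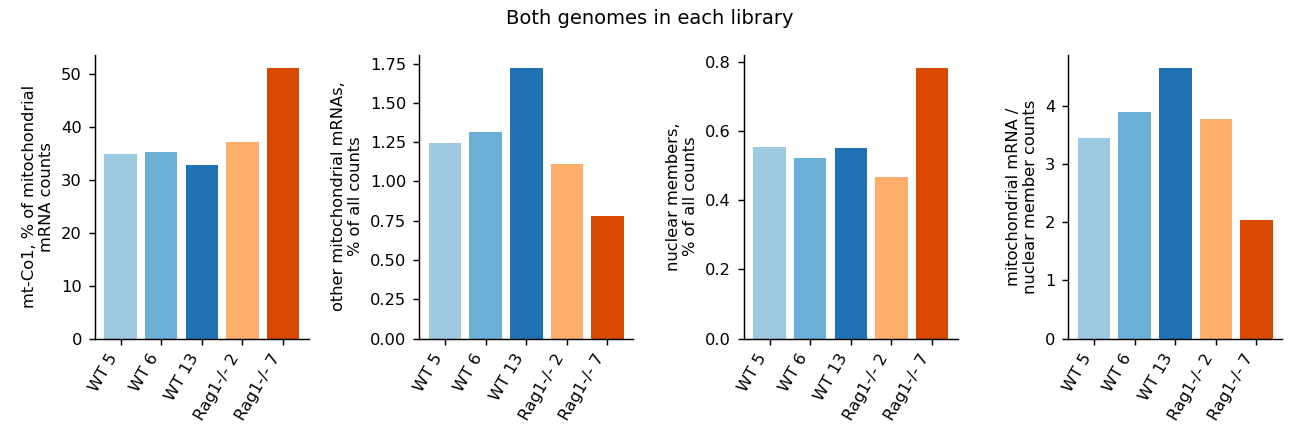
Bars give, for each of the 5 libraries, mt-Co1 as a percent of mitochondrial mRNA counts, the other mitochondrial mRNAs and the nuclear members as percents of all counts, and the ratio of mitochondrial mRNA to nuclear member counts. Pool 7 stands apart in each panel, with 51.1% of mitochondrial mRNA counts on mt-Co1, whereas pool 2 is closer to the WT pools.

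**Figure D3:**
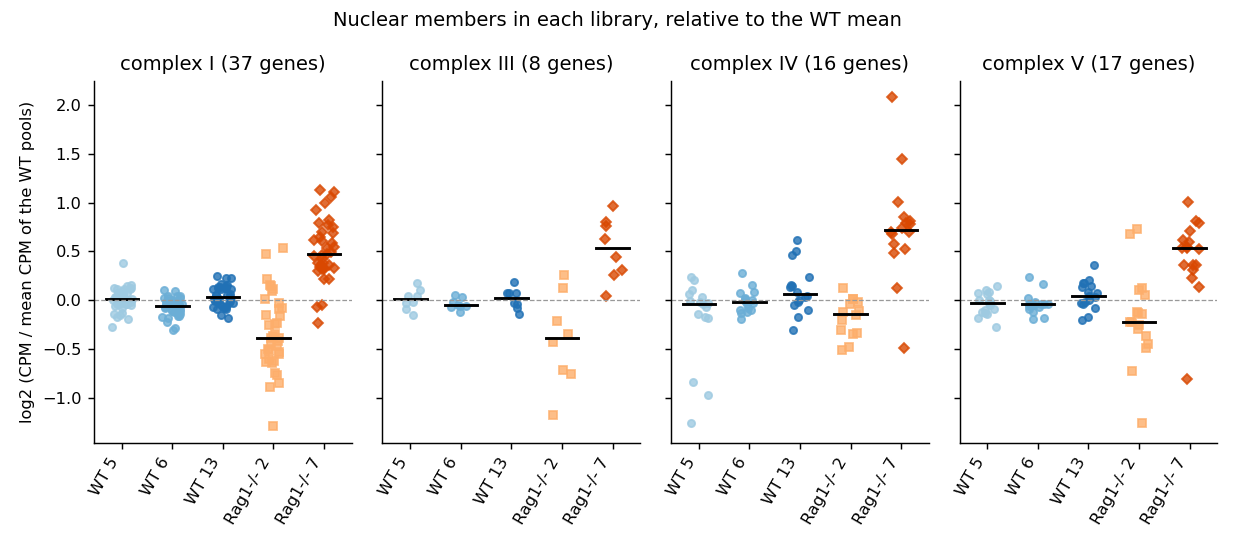
Each point is a tested nuclear member in 1 library, plotted as the log2 ratio of its CPM to the mean CPM of the WT pools, and black bars are medians. Cox6a2 and Cox8b are not drawn in pool 2, where they had 0 counts. In each complex the median of pool 7 lies above and that of pool 2 below the WT pools.

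Complex I contributed 37 nuclear members, all tested, with a median log2 fold change of 0.16. Pool 7 was highest and pool 2 lowest for 24 of them. Core subunits are conserved from bacteria, and many of the nuclear ones, though not Ndufs3, carry flavin or iron-sulphur clusters. Over Ndufs1, Ndufs3, Ndufs7, Ndufs8, Ndufv1 and Ndufv2 the log2 fold changes ran from -0.10 to 0.34, with a median of 0.03, beside 0.19 over 30 nuclear members of the complex outside the core, and the difference between these medians was not tested. Ndufs1, the largest core subunit, had 74.4, 74.8 and 67.8 CPM in WT, 68.3 CPM in pool 2 and 70.1 CPM in pool 7, and was among the few members at a like level in both pools labelled Rag1-/-. Of these core subunits Ndufs3 alone separated the groups, at 24.6, 26.1 and 26.3 CPM in WT, 27.8 CPM in pool 2 and 35.2 CPM in pool 7 (log2 fold change 0.34 ± 0.20, adjusted p = 0.345, edgeR).

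The largest positive log2 fold changes in complex I were those of supernumerary subunits, proteins added to the core in eukaryotes. Ndufb7, at the intermembrane face of the membrane arm, had 25.8, 29.9 and 31.5 CPM in WT, 42.0 CPM in pool 2 and 62.6 CPM in pool 7. Ndufa13 (GRIM-19), also linked to cell death and STAT3 signalling, had 37.0, 38.3 and 37.3 CPM in WT, 52.3 CPM in pool 2 and 81.8 CPM in pool 7. These were the members with the smallest p-values, with both pools labelled Rag1-/- above every WT pool and log2 fold changes of 0.89 ± 0.24 and 0.88 ± 0.24 (adjusted p = 0.0715 and 0.0725, edgeR). In DESeq2 their adjusted p-values were 0.0287 and 0.031, below the threshold, but with log2 fold changes of 0.86 and 0.84, under the size required. Of the windows of Ndufa13 28.5% are shared with other transcripts, chiefly with Tssk6 at the same locus, so its counts are uncertain.

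Over all nuclear members, 9 of those tested were higher without overlap between the groups, against 21.9% of all genes tested, and 1 was lower without overlap, against 24.0%. Besides Ndufb7, Ndufa13 and Ndufs3 the former were Ndufb2, Ndufb5, Uqcrh, Uqcrfs1, Atp5g2 and Atp5sl, and the latter was Atp5s. Among the mitochondrial members 4 of 7 were lower without overlap (mt-Nd1, mt-Nd4, mt-Nd5 and mt-Cytb), and pool 7 was the lowest library for 6 of 7, an order held by 22.3% of all genes tested. Adjacent mitochondrial genes share precursors and are not independent observations.

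In complex III, the 8 nuclear members had a median log2 fold change of 0.15. Uqcrh, the acidic hinge protein at the docking site of cytochrome c and the nuclear member with the highest level per kilobase of the complex, had 85.1, 98.0 and 99.4 CPM in WT, 113 CPM in pool 2 and 184 CPM in pool 7. Uqcrfs1, the Rieske iron-sulphur protein, had 83.8, 80.8 and 80.1 CPM in WT, 89.3 CPM in pool 2 and 142 CPM in pool 7. Neither passed the test (log2 fold change 0.70 ± 0.26 and 0.55 ± 0.24, adjusted p = 0.142 and 0.205, edgeR), although the groups did not overlap. The core proteins Uqcrc1 and Uqcrc2 did not separate the groups: Uqcrc1 had 54.7 to 68.2 CPM in WT, 36.8 CPM in pool 2 and 62.4 CPM in pool 7, and Uqcrc2 had 98.3 to 108 CPM in WT, 80.6 CPM in pool 2 and 127 CPM in pool 7. Uqcr11, a small supernumerary subunit, showed the widest such split of the complex, at 24.8 to 28.0 CPM in WT, 11.6 CPM in pool 2 and 35.4 CPM in pool 7. Its log2 fold change was -0.08 with all libraries, -1.23 without pool 7 (adjusted p = 0.0246, edgeR, the sole member called in that fit) and 0.52 without pool 2.

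Complex IV is the complex with the most tissue-restricted isoforms. Cox4i1, the regulatory subunit that starts assembly, was the highest nuclear member of the complex by CPM and per kilobase, with 228, 216 and 258 CPM in WT, 231 CPM in pool 2 and 379 CPM in pool 7. The 7 general isoforms (Cox4i1, Cox6a1, Cox6b1, Cox7a2, Cox7b, Cox8a and, by function, Ndufa4) had positive log2 fold changes from 0.25 to 0.45, and in each pool 7 was the highest library. None passed the test (adjusted p of at least 0.319, edgeR). Cox6a1, for example, had 106, 98.8 and 92.3 CPM in WT, 100.1 CPM in pool 2 and 161 CPM in pool 7, and the groups overlapped through pool 2.

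The restricted isoforms were low. Cox6a2, the heart and skeletal muscle form, had 13, 24 and 28 counts in WT, 0 in pool 2 and 98 in pool 7. Cox8b, another muscle form, had 9, 23 and 28 counts in WT, 0 in pool 2 and 59 in pool 7, and Cox7a1 28, 62 and 64 counts in WT, 8 in pool 2 and 110 in pool 7. The depth of pool 2 allows up to 0.373 CPM (3 counts) where none were seen, which covers counting error only and lies within the WT levels of both genes. The log2 fold change of 1.28 ± 1.08 of Cox6a2 was the largest of any nuclear member tested and rested on pool 7 (adjusted p = 0.505, edgeR). Its direction turned in limma on the deposited signal, with a log2 fold change of -0.93 (adjusted p = 0.767), as did that of Cox8b, from 0.71 in edgeR to -1.09 (adjusted p = 0.704). Skeletal muscle markers had a summed level of 29.3 to 79.5 CPM in WT, 70.3 CPM in pool 2 and 134 CPM in pool 7. The sum was highest in pool 7, as were these isoforms, but in pool 2 it lay within the WT range, with 48.9 CPM of it from Ttn. Of 10 such markers 8 were tested and 0 called, and Myh4 and Tnnc2 were at 0 in pool 2. The part of muscle RNA in these values was not tested. As a percent of the summed counts of both forms, Cox6a2 was 0.314% to 0.912% in WT and 1.54% in pool 7, and Cox8b 0.250% to 0.964% in WT and 1.01% in pool 7.

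Cox4i2, the form induced at low oxygen and known from lung, had 1.22 to 1.6 CPM in WT, 0.994 CPM in pool 2 and 2.49 CPM in pool 7. Its share of summed Cox4i1 and Cox4i2 counts was 0.514% to 0.696% in WT, 0.428% in pool 2 and 0.653% in pool 7, so that this share varied less than the level did. Cox6b2, a testis form, had 1.34 to 1.57 CPM in WT, 1.61 CPM in pool 2 and 1.05 CPM in pool 7. Cox7b2 and Cox8c, also testis forms, were at 0 in all 5 libraries. Ndufa4l2, a hypoxia-induced paralogue of Ndufa4, was the best detected restricted isoform, with 26.9, 16.7 and 18.2 CPM in WT, 8.45 CPM in pool 2 and 17.5 CPM in pool 7. It had the most negative log2 fold change among the nuclear members of complex I by the symbol-based grouping (-0.60 ± 0.38, adjusted p = 0.365, edgeR). Its share of the summed counts of Ndufa4 and Ndufa4l2 was 23.3%, 17.7% and 16.0% in WT, 11.8% in pool 2 and 10.2% in pool 7, without overlap. Ndufa4 itself had 88.5, 78.0 and 95.5 CPM in WT, 63.1 CPM in pool 2 and 154 CPM in pool 7.

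Complex V held the most abundant nuclear members. Atp5b, the catalytic beta subunit, had 898, 809 and 791 CPM in WT, 699 CPM in pool 2 and 1067 CPM in pool 7. Atp5a1, the alpha subunit, followed with 653, 607 and 611 CPM in WT, 534 CPM in pool 2 and 801 CPM in pool 7. Pool 7 was above and pool 2 below the WT pools for both, with log2 fold changes of 0.12 ± 0.26 and 0.14 ± 0.25. Over the 5 subunits of the catalytic head (Atp5a1, Atp5b, Atp5c1, Atp5d and Atp5e) the median was 0.29 and pool 7 was the highest library in each. The largest was Atp5e, the epsilon subunit of the stalk, at 68.9, 75.3 and 84 CPM in WT, 81.7 CPM in pool 2 and 153 CPM in pool 7 (0.67 ± 0.29, adjusted p = 0.196, edgeR).

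Atp5g1, Atp5g2 and Atp5g3 encode the same mature c subunit of the membrane ring with different import sequences. Per kilobase of coding transcript the WT means were 292 CPM for Atp5g3, 2.15 CPM for Atp5g1 and 1.70 CPM for Atp5g2, so that nearly all c subunit counts came from Atp5g3. Atp5g3 had 223, 197 and 210.1 CPM in WT, 149.8 CPM in pool 2 and 269 CPM in pool 7. Atp5g1 was 2.60% to 2.76% of the summed Atp5g1 and Atp5g3 counts in WT, 2.90% in pool 2 and 2.29% in pool 7. Copies of these genes are common, and 38.3% of the windows of Atp5g2 and 11.1% of those of Atp5g1 are shared with other transcripts, so the levels of both are uncertain.

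The factors matched by name lay on opposite sides of 0. Atp5s had 5.93, 5.78 and 6.10 CPM in WT, 2.48 CPM in pool 2 and 3.39 CPM in pool 7, the sole nuclear member lower without overlap (-0.95 ± 0.33, adjusted p = 0.124 in edgeR and 0.0444 in DESeq2, with a log2 fold change of -0.97 there). Atp5sl had 14.7, 18.7 and 16.5 CPM in WT, 27.6 CPM in pool 2 and 19.5 CPM in pool 7 (0.52 ± 0.24, adjusted p = 0.217, edgeR). In both, pools 2 and 7 lay on the same side of WT, unlike most subunits.

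**Figure D4:**
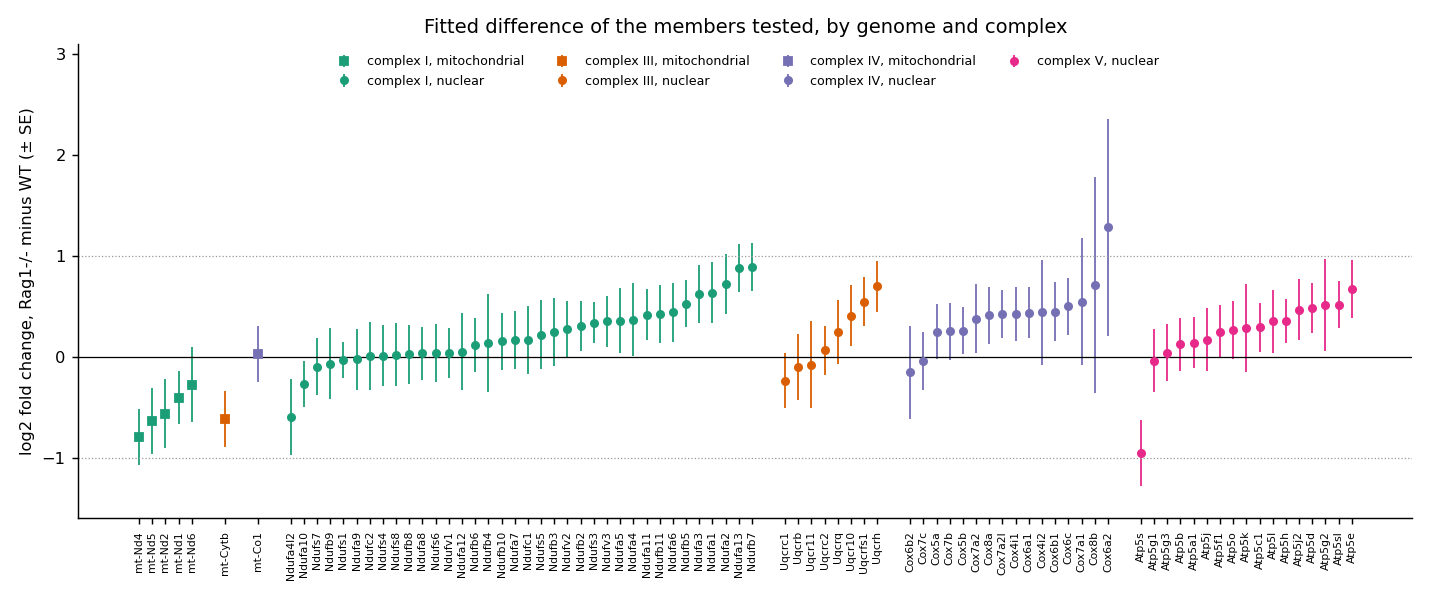
Points are the fitted log2 fold changes (Rag1-/- minus WT) of 84 of the 85 members tested, with bars of 1 SE, sorted within genome and complex, and dotted lines mark the size of 1 required for a call. The mitochondrial members (squares) other than mt-Co1 lie below 0 and most nuclear members (circles) above it, from -0.95 for Atp5s to 1.28 for Cox6a2, and none was called.

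Among nuclear members the level per kilobase of coding transcript in WT ranged from 0 to 435 CPM, with Atp5b first, then Cox4i1 (314 CPM), Atp5g3 (292 CPM), Atp5a1 (242 CPM), Uqcrh (198 CPM) and Ndufa4 (189.9 CPM). Neither Cox4i1 and Atp5g3 nor Uqcrh and Ndufa4 differed beyond their spread over the WT pools. A gene's length here is the median over all its transcripts annotated as protein coding, which can differ from that of its main mRNA. It was 651 bases for Ndufs1, the largest core subunit of complex I, so the levels per kilobase and the length classes are approximate. By this measure nuclear members were short, with a median of 655 bases against 2187 over all genes tested that have such a length. The gap between pools 2 and 7 varied with this length. Members under 1000 bases had a median log2 ratio of pool 7 to pool 2 of 0.90 (59 genes) and longer ones of 0.65 (17 genes), and over all genes tested the same medians were 0.25 and -0.04. Spearman's rho between this ratio and length was -0.37 over 76 nuclear members and -0.24 over 14197 genes, which share the same pair of libraries and are not independent replicates. Both length classes of members thus lay above genes of the same class by this measure, and the part of transcript length or of RNA quality in the gap was not tested.

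Promoters of nuclear members were searched for the motifs of factors known to act on respiratory genes. In windows from 250 bases before to 50 after the RefSeq start (GRCm38.p6), found for 66 of the 80 nuclear members, GCATGCGC (the core of the NRF1 site) was present on either strand in 9 members or 13.6%, against 3.05% of all genes. CCGGAAG (the ETS site bound by GABP) was present in 14 or 21.2%, against 9.93%, and AAGATGGC (YY1) in 11 or 16.7%, against 3.19%. The windows of members were richer in G and C, with a median of 57.2% against 52.7% over all windows, and the part of this in the shares was not tested. Matches were counted on both strands and could overlap, and a match is a description and not a bound site. Members with and without the ETS letters had median log2 fold changes of 0.35 and 0.25, those with and without the NRF1 letters 0.35 and 0.26, and those with and without the YY1 letters 0.16 and 0.30. The last 120 bases before the RefSeq start are shown for Uqcrh (chr4:116075071-116075190, minus strand), which separated the groups, and for Ndufa11 (chr17:56717642-56717761, plus strand) and Ndufa6 (chr15:82354292-82354411, minus strand), which hold NRF1 letters near the start, with the matches in capitals.
Uqcrh: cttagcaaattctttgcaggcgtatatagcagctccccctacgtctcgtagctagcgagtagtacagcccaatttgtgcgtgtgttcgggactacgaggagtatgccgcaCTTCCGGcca
Ndufa11: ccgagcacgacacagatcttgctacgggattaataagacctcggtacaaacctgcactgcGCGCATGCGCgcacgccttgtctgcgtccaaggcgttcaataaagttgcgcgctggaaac
Ndufa6: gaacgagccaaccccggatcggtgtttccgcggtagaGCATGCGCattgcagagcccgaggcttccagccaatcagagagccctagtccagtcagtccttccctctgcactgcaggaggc

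In the Ndufa11 and Ndufa6 stretches the capitals are NRF1 letters, and in that of Uqcrh they are the ETS letters read on the other strand. Ndufa11 had 30.5, 30.3 and 28.4 CPM in WT, 29.2 CPM in pool 2 and 47.8 CPM in pool 7, and Ndufa6 65.3, 56.4 and 65.0 CPM in WT, 55.6 CPM in pool 2 and 108 CPM in pool 7. All 3 genes had their highest level in pool 7, and Uqcrh alone was above WT in pool 2 as well.

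The other genes of the pathway were described from lists chosen with earlier results of these data known, and none held a called gene. Complex II, the sole complex made by the nuclear genome alone, had 4 genes tested and a median of 0.42 on the log2 scale. Its iron-sulphur subunit Sdhb had 57.7, 53.6 and 57.7 CPM in WT, 75.3 CPM in pool 2 and 103 CPM in pool 7 (0.71 ± 0.21, adjusted p = 0.0896, edgeR). Cyc1, Cycs and Ndufab1 had a median of 0.05.

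Assembly factors had medians of 0.21 for complex I (14 tested), 0.13 for complex III (6), 0.24 for complex IV (19) and -0.23 for complex V (3). Cox10, which makes the haem precursor for complex IV, had 13.7, 13.1 and 12.9 CPM in WT, 23.5 CPM in pool 2 and 22.6 CPM in pool 7 (0.83 ± 0.20, adjusted p = 0.0553, edgeR). Acad9, an assembly factor of complex I, had 151, 152 and 107 CPM in WT, 44.2 CPM in pool 2 and 72 CPM in pool 7 (-1.19 ± 0.30, adjusted p = 0.0621, edgeR). In both genes pools 2 and 7 lay on the same side of every WT pool. Uqcc3 (adjusted p = 0.108) and Atpaf1 (adjusted p = 0.470) had the smallest p-values of the complex III and complex V factors (edgeR).

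Of the genes for mitochondrial transcription and RNA handling 21 were tested, with a median of 0.13, and Polg2, the accessory subunit of the mitochondrial DNA polymerase, had the smallest p-value (0.99 ± 0.25, adjusted p = 0.0654, edgeR). Of 8 nuclear regulators, with a median of -0.18, it was Nrf1, at 36.5, 37.7 and 34.2 CPM in WT, 55.5 CPM in pool 2 and 58.1 CPM in pool 7 (0.69 ± 0.18, adjusted p = 0.0657, edgeR). Of 13 citric acid cycle genes, with a median of 0.06, it was Cs, citrate synthase, at 323, 324 and 316 CPM in WT, 145 CPM in pool 2 and 236 CPM in pool 7 (-0.71 ± 0.26, adjusted p = 0.147, edgeR). The order with pool 7 highest and pool 2 lowest, held by 47 of 78 nuclear members, was also held by 2 of 4 complex II genes and by 2 of the 3 genes Cyc1, Cycs and Ndufab1. Among assembly factors it was held by 7 of 19 for complex IV, 2 of 6 for complex III, 0 of 14 for complex I and 0 of 3 for complex V. It was held by 5 of the 13 citric acid cycle genes, 1 of the 21 transcription and RNA genes and 0 of the 8 regulators.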

How the data were processed

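RNA of 5 sorted pools was sequenced by the authors (TruSeq RNA v2, which does not mark strand, single reads of 50 bases), with poly(A) enrichment by the study's methods. Per the labels, reads were aligned to GRCm38 with STAR 2.5 allowing 2 mismatches and counted per gene with featureCounts 1.5.0-p1, on annotation release 103 by the labels and 84 by the study's methods. The authors deposited raw counts for 47729 genes, used for every main value, and a normalized signal per gene symbol, which from its values is the count scaled by a size factor per library and was used in an alternative alone.

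Genes passing filterByExpr were compared between genotypes, as the labels give them, with the edgeR 4.0.16 quasi-likelihood test (R 4.3.3, TMM scaling, genotype as the only factor) and Benjamini-Hochberg adjustment over all genes tested. Calls needed a log2 fold change beyond 1 in either direction besides an adjusted p-value below 0.05. The SE is the log2 fold change divided by the root of the F statistic. CPM is the count per 1000000 counts of the library. Totals ranged from 8050562 to 39477243, and limits from 3 counts cover counting error only. Shared windows, transcript lengths and pseudogenes were taken from GENCODE M21 (GRCm38), where 93 of 93 members were found, and promoters from RefSeq (GRCm38.p6). The fit was tested on simulated counts with changes larger than any fitted for a member. That test does not cover differences of the sizes reported here.

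The members and lists were chosen with earlier results of these data known. Named genes were the mitochondrial mRNAs, in each complex the nuclear members with the highest level and the largest fold changes in either direction, isoforms and their counterparts, and the gene with the smallest p-value of each other list. Ndufs1, Ndufs3, Uqcr11, Uqcrfs1, Atp5a1, Ndufa6, Ndufa11, Atp5sl, the members without overlap and the division into core and other subunits were chosen after the values were seen. Alternatives were DESeq2 1.42.0, limma 3.58.1 on the deposited signal (pseudocount 1), RLE scaling, library size alone or without chromosome MT, scaling on leukocyte genes, other filters, and each library left out. The values of 1 member are not reported singly here.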

Additional observations from a re-analysis of the deposited data

How the results depend on the processing

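No member passed the threshold with all libraries and TMM scaling. The same held with DESeq2, RLE scaling, library size alone, library size without chromosome MT, limma on the deposited signal and either filter. By the edgeR adjusted p-value alone 0 members passed in the fit with all libraries and TMM scaling. Without a filter 2 nuclear members passed by it, with a smallest value of 0.0371. Leaving out each library in turn gave 0 to 1 members. Scaling on leukocyte genes, which sets a list that was itself called higher to no change, called 72 and moved the medians of the mitochondrial and nuclear members to -2.71 and -1.90, against -2.16 for all genes. Under it mt-Co1 (-2.11), Atp5b (-2.09), Atp5g3 (-2.16), Cox4i1 (-1.74), Cox6a1 (-1.77), Cox6b1 (-1.72), Cox7a2 (-1.74), Cox7b (-1.90), Cox8a (-1.78), Ndufa4 (-1.81), Ndufb5 (-1.64) and Uqcrfs1 (-1.64) were called lower with the sign turned. Left out in turn, the libraries gave mitochondrial medians from -0.89 (without pool 2) to -0.33 (without pool 7) and nuclear medians from -0.34 (without pool 7) to 0.61 (without pool 2). The Rag1-/- minus WT difference in the mitochondrial mRNA share was -0.486 percentage points and stayed between -0.614 and -0.290 with libraries left out, between -0.539 and -0.452 under the other denominators and numerators. Where a genotype was left with 1 library, its spread was assumed to equal that of the others. Calls over all genes were 1090 with all libraries and TMM scaling, 2453 with DESeq2, 2645 without a filter, 1497 with 10 counts in every library, 12835 with the leukocyte scaling, 2409 without pool 7, and 0 without pool 2 or any WT pool. Without pool 2, 48 nuclear members had an unadjusted p under 0.05 in edgeR, against 25.8% of all genes in that fit, and 5 did with all libraries and TMM scaling, against 26.4%. With 8050562 counts pool 2 limits the precision for low members such as Cox6a2. No paired analysis was possible because the groups share no replicate numbers.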

Other observations

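Other transcripts of the mitochondrial genome followed the mRNAs only in part. The ribosomal RNAs mt-Rnr1 and mt-Rnr2, structural RNAs of the mitochondrial ribosome, together held 0.328%, 0.324% and 0.556% of counts in WT pools 5, 6 and 13, 0.610% in pool 2 and 0.261% in pool 7. Pool 7 was the lowest of the libraries, as it was for the summed mRNAs, whereas pool 2 was the highest. The ratio of mitochondrial mRNA to ribosomal RNA counts was 5.83, 6.27 and 4.6 in WT, 2.90 in pool 2 and 6.11 in pool 7. In this ratio pool 7 lay within the WT range and pool 2 under it. The transfer RNA genes summed to 19.0, 23.8 and 36.9 CPM in WT, 36.3 CPM in pool 2 and 50.2 CPM in pool 7, so that pool 7 was highest for them. mt-Tc, which lies in the light-strand cluster between mt-Nd2 and mt-Co1, had 1.52, 2.28 and 4.58 CPM in WT, 9.32 CPM in pool 2 and 10.1 CPM in pool 7, and mt-Ta of the same cluster 2.01, 2.20 and 6.53 CPM in WT, 6.09 CPM in pool 2 and 11.1 CPM in pool 7. Without strand, reads of these genes and of precursors across them cannot be told apart, and the genes were chosen after their values were seen. The part of poly(A) enrichment in the ribosomal and transfer RNA values was not tested.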
